A study of Mus musculus with 6 samples.

Results

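The genes described here encode 4 families of splicing proteins: the SR proteins (Srsf), the hnRNP proteins (Hnrnp), the SF3a and SF3b subunits of the U2 small nuclear ribonucleoprotein (Sf3) and the Snrp proteins of the spliceosomal small nuclear ribonucleoproteins (snRNPs). They were selected by a rule on gene symbols, set with earlier results of these data known. The symbols begin with Srsf and a digit, Hnrnp, Sf3a or Sf3b and a digit, or Snrp. The rule found 51 of the 22740 protein-coding genes in the deposited count table, with 11 SR, 20 hnRNP, 8 SF3 and 12 Snrp members. A filter on low counts kept 49 of them for testing, and the remaining 2, Srsf12 and Snrpn, had at most 1 count in any library. RNA was sequenced from B16, a mouse melanoma cell line that the labels give as BRAFV600E-negative, after 3 days with 1 uM CX5461 (CX-5461) or with its vehicle DMSO. Each group had 3 libraries from 1 cell line, and all 6 shared the line, the genotype and the time. CX-5461 inhibits RNA polymerase I, which transcribes the ribosomal RNA genes, and is also known to bind and stabilise G-quadruplex DNA. The labels do not say whether the replicates were separate cultures, so every p-value measures only the spread between these libraries.

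Splicing removes introns from pre-mRNA in the spliceosome, which is built from the U1, U2, U4, U5 and U6 snRNPs and many other proteins. In each of these snRNPs except U6 a ring of Sm proteins surrounds the small nuclear RNA, U1 proteins act at the 5′ splice site, and U2 with SF3a and SF3b recognises the branch point. SR proteins bind exonic enhancers and mostly promote the use of nearby splice sites, whereas hnRNP proteins bind many pre-mRNA sites and often oppose it. Many SR and hnRNP genes also regulate their own mRNA through exons whose inclusion leads to nonsense-mediated decay, and a count per gene does not separate such transcripts.

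Libraries held 17573990 to 22908309 counts, and 3 counts, the floor for an undetected gene, were 0.135 to 0.173 CPM (counts per 1000000 counts of the library total, adjusted by its TMM factor). That floor reflects counting error alone. All 8 melanocyte lineage markers on the list used passed the filter, at a summed 22800 to 23700 CPM with DMSO and 29600 to 32000 CPM with CX-5461. Of 5 fibroblast markers 2 passed, at 7.87 to 10.0 CPM summed over the list with DMSO and 27.0 to 29.5 with CX-5461, with Col3a1 at 0, and no leukocyte, endothelial or keratinocyte marker passed. The part of this shift in the results below was not tested. In this experiment 73.7% of the 12198 genes tested were called changed (edgeR's quasi-likelihood F test, Benjamini-Hochberg adjusted p below 0.05 over all tested genes), with 37.2% higher and 36.5% lower after CX-5461.

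With CX-5461, splicing factor mRNAs were more often lower than higher, and most changes were small. Of the 49 tested members 5 rose (10.2%), 24 fell (49.0%) and 20 did not pass the test. Their median log2 change (CX-5461 minus DMSO) was −0.13, against a median near 0 (−0.005) for all tested genes. The sizes were modest: the median absolute log2 change was 0.18 in the members and 0.38 over all tested genes. Only 5 members, all lower, were called and changed at least 1.5-fold (10.2% of members, against 32.2% of all tested genes), and 13 changed at least 1.25-fold (26.5% against 54.1%). Without replicate 2 of CX-5461 the split was 4 higher and 29 lower. With each gene's change corrected for its genomic span it was 9 higher and 18 lower, and the members' median was −0.04 (−0.005 for all genes). With a correction for GC content it was 5 higher and 20 lower, with a median of −0.08 (−0.03 for all genes). Fewer cells of a given state and less RNA per cell cannot be told apart in bulk RNA.

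**Figure D1:**
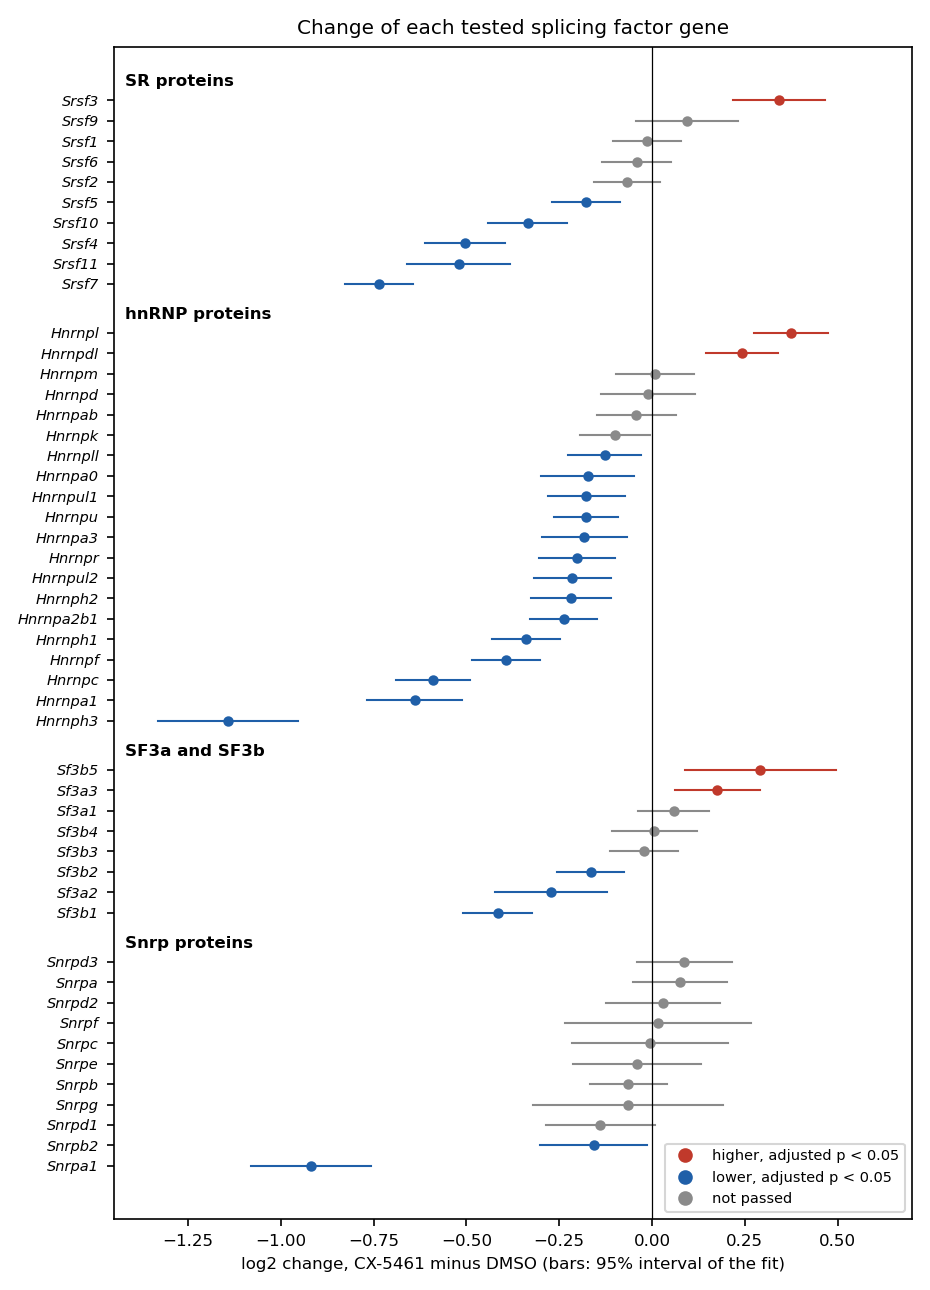
Log2 change, CX-5461 minus DMSO, of the 49 tested members in their 4 families; points are edgeR estimates, bars are 95% confidence intervals, red and blue mark genes called higher and lower, and grey those that did not pass. The hnRNP points lie mostly to the left of 0, while 9 of the 11 Snrp points did not pass.

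The members are abundant genes, with a median of 98.6 CPM against 37.0 CPM for all tested genes. Among the 4296 non-member genes between the members' quartiles of abundance, 49.5 to 237 CPM, 1488 were higher and 1816 lower (76.9% called), with a median log2 change of −0.05 and a median absolute change of 0.30. Of all counts, the members as a whole took up 0.910% to 0.930% with DMSO but 0.768% to 0.795% after CX-5461, ranges that did not overlap. The summed level of the members was 8998 ± 62.7 CPM (SD, n = 3) with DMSO and 8045 ± 129 CPM (SD, n = 3) with CX-5461, a ratio of 0.894.

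The families differed in how many members moved. The share of tested members called was 80% in hnRNP, 60% in SR, 62.5% in SF3 and 18.2% in Snrp. Over all tested genes it was 73.7% (37.2% higher and 36.5% lower), and the Snrp share lay furthest from it. The hnRNP family had 2 members higher, 14 lower and 4 not passed (median log2 change −0.18). With the GC correction 9 hnRNP members were lower and the median was −0.10, and with the span correction it was −0.11. The SR family had 1 higher, 5 lower and 4 not passed (median −0.12, or −0.04 with the span correction), and the SF3 family 2 higher, 3 lower and 3 not passed (median −0.01, or 0.07 with the span and −0.09 with the GC correction). In the Snrp family none was called higher (0 too at an unadjusted p below 0.05, with DESeq2 and with limma-voom), 2 were lower and 9 did not pass (median −0.04). The differences between families were described by these counts and were not tested. Leaving out replicate 2 of CX-5461 raised the Snrp members called lower from 2 to 4, and leaving out any library but that one and DMSO replicate 1 left 1.

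In groups that did not overlap (all 3 libraries of one group above all 3 of the other), the counts were 7 of 10 SR, 17 of 20 hnRNP, 4 of 8 SF3 and 1 of 11 Snrp members, beside 76.2% of all tested genes (38.2% higher and 37.9% lower). Over the 4 families 4 members were higher and 25 lower by this measure. The summed level fell from 2098 ± 10.7 to 1877 ± 30.9 CPM in the SR family, from 4887 ± 62.8 to 4346 ± 82.1 in the hnRNP family and from 1470 ± 2.77 to 1308 ± 8.04 in the SF3 family (SD, n = 3 each). In each of these families the 3 CX-5461 sums lay below the 3 DMSO sums. Most of the SF3 fall was that of Sf3b1, which went from 568.5 ± 2.47 to 426.2 ± 19.3 CPM (SD, n = 3 each). The SF3 median log2 change was −0.01. The Snrp sums of 543 ± 9.54 CPM in controls and 514 ± 28.9 CPM in treated libraries (SD, n = 3) came from groups that overlapped.

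**Figure D2:**
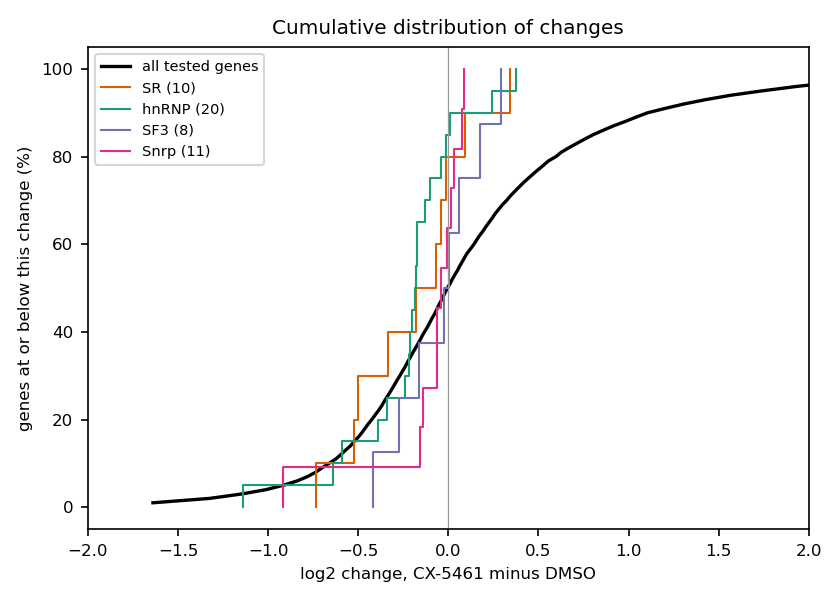
Cumulative share of genes (y axis, %) at or below a given log2 change (x axis), for all 12198 tested genes and for the tested members of each family. The family curves are steeper than the curve of all genes and end below a log2 change of 0.38, whereas the curve of all genes runs past the right end of the axis.

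The sequences upstream of 3 members are shown because these genes changed in opposite directions within the SR family or had the largest called fall of SF3. They are RefSeq sequences (GRCm38) of the longest stretch outside annotated exons in the 250 bases before the start of each gene. Capitals mark matches on either strand to the CCAAT box (CCAAT), the GC box (GGGCGG) or the core of the cAMP response element (TGACGT), and the E-box (CACGTG) was searched too.

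Srsf3, chr17:29032569-29032627, plus strand: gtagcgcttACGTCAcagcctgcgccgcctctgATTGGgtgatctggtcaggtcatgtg
Srsf7, chr17:80207308-80207459, minus strand: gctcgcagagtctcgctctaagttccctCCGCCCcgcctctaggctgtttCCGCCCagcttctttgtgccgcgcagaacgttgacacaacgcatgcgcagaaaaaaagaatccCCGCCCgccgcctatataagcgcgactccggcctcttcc
Sf3b1, chr1:55027482-55027728, minus strand: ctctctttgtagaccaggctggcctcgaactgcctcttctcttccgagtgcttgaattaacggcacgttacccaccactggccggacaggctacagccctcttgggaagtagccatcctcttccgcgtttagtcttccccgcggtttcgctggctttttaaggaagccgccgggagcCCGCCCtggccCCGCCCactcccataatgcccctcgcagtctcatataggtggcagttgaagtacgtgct

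In the printed stretches Srsf3 had 1 CCAAT and 1 TGACGT match and no GGGCGG, whereas Srsf7 had 3 GGGCGG matches and neither of the others. Sf3b1 had 2 GGGCGG matches. In the full 250-base windows GGGCGG was present in 68.9% of the 45 members that matched the RefSeq table, 60.8% of 9105 promoters of tested genes and 32.9% of all 27025 promoters. CCAAT was present in 46.7%, 37.0% and 34.5%, TGACGT in 20%, 10.5% and 6.6%, and CACGTG in 6.7%, 8.7% and 6.0%, in the same order.

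Within the members, GGGCGG was found in 18 of 22 that fell, 2 of 4 that rose and 10 of 17 that did not pass. CCAAT was found in 12 of 18 hnRNP, 3 of 11 SR, 2 of 6 SF3 and 4 of 10 Snrp windows. A run of 4 or more stretches of at least 3 G, with loops of 1 to 7 bases, on either strand, the letter pattern of a possible G-quadruplex, was present in 17.8% of member windows, 24.9% of windows of tested genes and 16.2% of all windows. These are matches of letters, not binding sites.

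Among the SR proteins the largest change was a fall of Srsf7 (chr17:80200080-80207307, minus strand), which binds exonic enhancers and also takes part in mRNA export. Its level was 214, 216 and 224 CPM in the DMSO libraries and 131, 133 and 129.8 CPM in the CX-5461 libraries. The CX-5461 values were tightly grouped and all far below the DMSO values. The fall was 1.66-fold (log2 −0.73 ± 0.04 SE, edgeR adjusted p = 5.079e-10).

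Srsf3 (chr17:29032628-29043373, plus strand), the smallest SR protein and a close relative of Srsf7, was the only SR gene called higher. It stood at 134, 129 and 131 CPM with DMSO and at 168, 181 and 151 CPM with CX-5461. The lowest CX-5461 library was above the highest DMSO library, although the treated libraries were more spread. The rise was 1.27-fold (log2 0.34 ± 0.06 SE, edgeR adjusted p = 7.505e-05). The log2 ratio of Srsf3 to Srsf7 within a library lay between −0.77 and −0.68 with DMSO and between 0.22 and 0.45 with CX-5461. Between the groups the log2 ratio differed by 1.07, with no overlap (exact two-sided permutation p = 0.1, the smallest that 3 against 3 libraries can give). Of the 8 within-family ratios computed, all chosen after the changes had been seen, each gave this p of 0.1, so none passes after adjustment.

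Srsf11, an SR-like nuclear protein, fell from 215, 218 and 201 CPM to 161, 129.8 and 151 CPM (1.44-fold, edgeR adjusted p = 2.96e-06). The CX-5461 libraries were more spread than the DMSO libraries but did not reach them. Srsf4 fell from 67.9, 66.6 and 67.3 CPM to 47.5, 46.9 and 47.9 CPM (1.42-fold, edgeR adjusted p = 2.453e-07), with both groups within about 1 CPM of their means. Srsf4 overlaps exons of the opposite-strand gene Gm12992 by 1532 bases. Srsf10, an SR-like protein known as a splicing repressor when dephosphorylated, and Srsf5 also fell, by 0.34 and by 0.18 on the log2 scale. Srsf5 was at −0.03 and not called with the GC correction.

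The other SR genes did not pass. Srsf2, which binds enhancers and is mutated in some human leukaemias, was the most abundant SR gene for its length, at 123 CPM per kb of exon with DMSO. It stood at 367, 361 and 362 CPM with DMSO and 336, 359 and 346 CPM with CX-5461, groups that did not overlap but a change of only 1.05-fold (log2 −0.07 ± 0.04 SE, edgeR adjusted p = 0.161). It shares exonic bases on the opposite strand with Mfsd11 and Mettl23, and whether the counting used strand is not given in the sources used here. Srsf1 (95% interval of the log2 change −0.10 to 0.08), Srsf6 (−0.13 to 0.05) and Srsf9 (−0.04 to 0.23) had intervals that include 0. These results depended on the processing. Srsf1 was called higher with the GC correction (log2 0.122). Srsf9 was called higher with the span correction (0.178) and without replicate 1 of CX-5461 (0.152). With library totals as the only scaling, Srsf6 (−0.115) and Srsf2 (−0.141) were called lower. Srsf2 was also called lower with the GC correction (−0.159) and without replicate 2 of CX-5461 (−0.096). For Srsf6, the relative of Srsf4, the log2 ratio to Srsf4 within a library was 2.48 to 2.53 with DMSO and 2.88 to 3.02 with CX-5461.

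**Figure D3:**
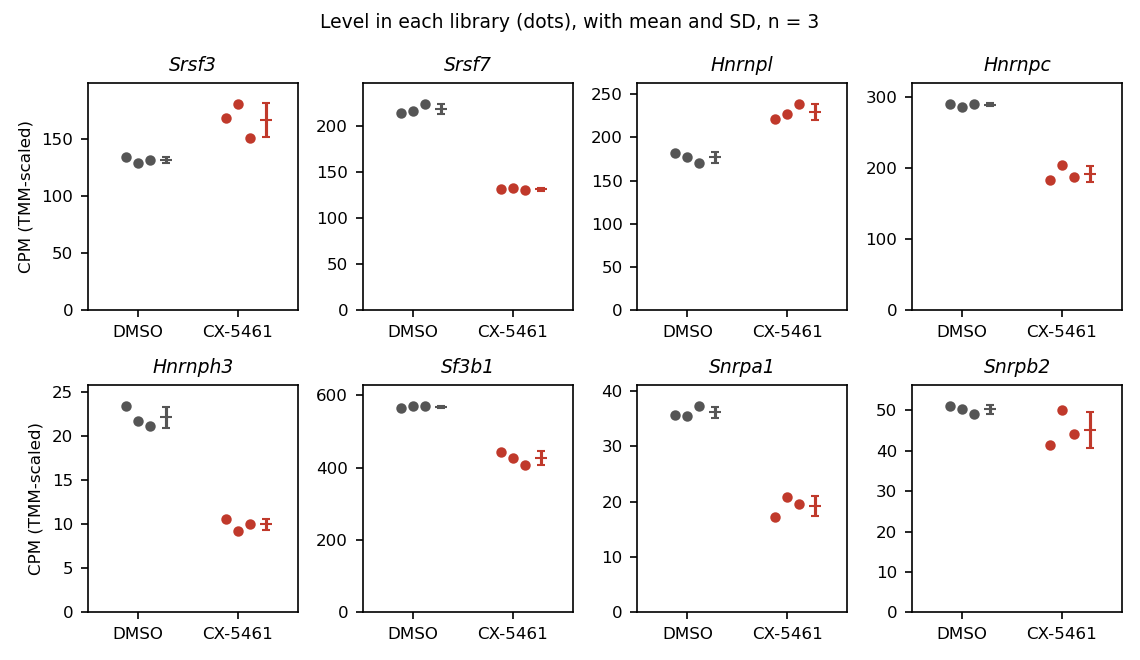
CPM of selected members in each of the 6 libraries (dots, with the mean and SD beside them, n = 3), each panel on its own linear axis from 0. Srsf3 and Hnrnpl are higher and Srsf7, Hnrnpc, Hnrnph3, Sf3b1 and Snrpa1 lower with CX-5461 without overlap of the groups, while those of Snrpb2 overlap.

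Among the hnRNP genes Hnrnph3 (chr10:63014664-63024217, minus strand), a member of the H/F group that binds G-rich RNA, had the largest fall. It stood at 23.4, 21.7 and 21.2 CPM with DMSO and 10.6, 9.26 and 10.1 CPM with CX-5461. Every treated library was below every control library. The fall was 2.21-fold (log2 −1.14 ± 0.09 SE, edgeR adjusted p = 1.302e-08), and Hnrnph3 was the only member that changed at least 2-fold. It overlaps exons of the opposite-strand gene Rufy2 by 115 bases.

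All 4 genes of the H/F group fell. Hnrnpf fell by 0.39, Hnrnph1 by 0.34 and Hnrnph2 by 0.22 on the log2 scale, and the group's median was −0.37. With the GC correction 2 of the 4 passed, both lower, and the group's median was −0.29, with Hnrnph1 at −0.10 and Hnrnph2 at −0.10 not called. Within libraries the log2 ratio of Hnrnph1 to Hnrnph3 was 4.04 to 4.17 with DMSO and 4.88 to 4.98 with CX-5461, so that Hnrnph3 was lower relative to Hnrnph1 after treatment.

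Hnrnpa1, the best known splicing repressor of the A/B group, fell from 49.5, 47.3 and 47.9 CPM to 31.9, 29.4 and 31.4 CPM, without overlap (1.56-fold, edgeR adjusted p = 1.246e-07). Its level is uncertain: 28.3% of the 50-base words of its longest transcript also occur in other genes, 18 of them pseudogenes. How shared reads were counted is not given in the sources used here. The levels of Snrpf (89.5% shared), Hnrnpf (67.3%), Sf3b4 (51.2%), Srsf4 (47.3%), Hnrnpk (37.8%) and Srsf2 (35.2%) are uncertain too. So are those of Hnrnpab (29.0%), Hnrnpm (28.8%), Hnrnpa3 (28.3%, with 41 pseudogenes) and Snrpe (20.8%). The words were searched on both strands, so genes that overlap at the same place count as well. Srsf4 shares 1532 exonic bases with the opposite-strand gene Gm12992, and Hnrnpm 1169 with the same-strand gene March2. No pseudogene shared words with either. Snrpf shares 735 exonic bases with opposite-strand genes. How much of the sharing these overlaps make up was not tested. Hnrnpc, which binds uridine tracts and keeps cryptic exons out of mRNA, fell from 289.8, 286 and 291 CPM to 184, 205 and 188 CPM. Its groups did not overlap either (1.51-fold, edgeR adjusted p = 2.003e-08).

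The A/B and D group was mixed. Of its 7 genes 4 fell, 1 rose and 2 did not pass. Hnrnpa2b1, which also reads m6A-marked RNA and was the most abundant member by CPM, stood at 938, 950.2 and 892 CPM with DMSO and 805, 775 and 778 CPM with CX-5461, a fall by 0.24 on the log2 scale (−0.16 with the span correction). Hnrnpa3 and Hnrnpa0 fell by 0.18 and 0.17, and neither was called with the span correction. Hnrnpa3 was at −0.02 with the GC correction, and Hnrnpa0 at −0.10 and not called without replicate 1 of CX-5461. Hnrnpdl, a relative of Hnrnpd that is known to control its own mRNA through a poison exon, rose from 90.7, 90.8 and 89.6 CPM to 109, 106 and 106 CPM (1.18-fold, edgeR adjusted p = 1.818e-04), while Hnrnpd had a log2 change of −0.01 with an interval of −0.14 to 0.12.

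Hnrnpab, of the same group, was the most abundant hnRNP gene for its length, at 254 CPM per kb of exon with DMSO. It stood at 701, 715 and 706 CPM with DMSO and 639, 738 and 684 CPM with CX-5461. The treated libraries lay both above and below the controls, and the change did not pass (log2 −0.04 ± 0.05 SE, edgeR adjusted p = 0.454). Hnrnpab overlaps exons of the opposite-strand gene Phykpl by 809 bases.

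The highest rise of all members was that of Hnrnpl (chr7:28808541-28822266, plus strand), which binds CA-rich RNA and represses or activates exons by position. It stood at 182, 177 and 170.4 CPM with DMSO and 221, 227 and 239 CPM with CX-5461. The groups were well apart (1.30-fold, log2 0.37 ± 0.05 SE, edgeR adjusted p = 2.904e-06). Its paralogue Hnrnpll, known for control of Ptprc splicing in lymphocytes, was called lower (by 0.13 on the log2 scale, edgeR adjusted p = 0.0217). With the GC correction the log2 change of Hnrnpll was 0.01. The log2 ratio of Hnrnpl to Hnrnpll was 0.80 to 0.86 with DMSO and 1.30 to 1.38 with CX-5461.

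The 3 genes of the U group, large nuclear RNA-binding proteins, fell by like amounts: Hnrnpul2 by 0.21, Hnrnpu by 0.18 and Hnrnpul1 by 0.18. With the span correction Hnrnpul2 was at −0.14, Hnrnpu at −0.09 and Hnrnpul1 at −0.11, the last not called. Hnrnpu was at −0.05 and not called with the GC correction. Hnrnpr, a relative of Syncrip, fell by 0.20 but was at −0.08 and not called with the GC correction. Hnrnpk, which binds C-rich nucleic acid, missed the threshold (log2 −0.10, edgeR adjusted p = 0.0545), and Hnrnpm had a log2 change of 0.01 with an interval of −0.10 to 0.11.

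**Figure D4:**
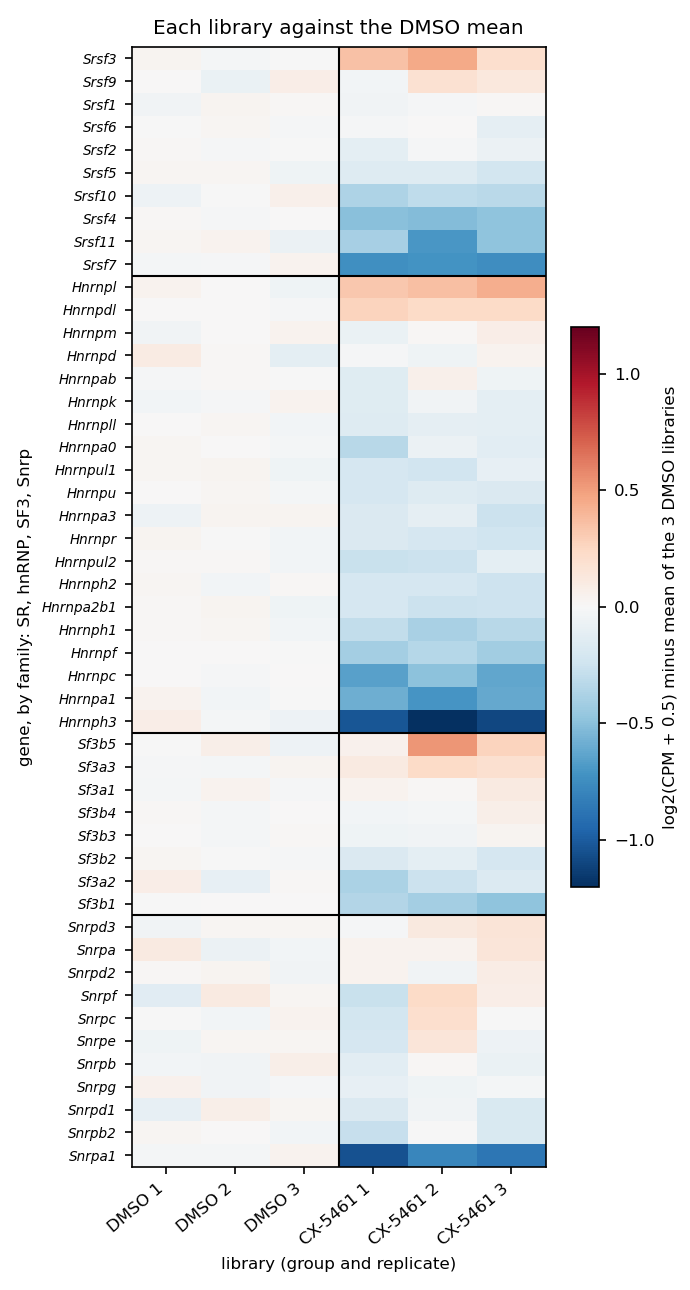
Log2(CPM + 0.5) of each tested member in each library minus the mean of the 3 DMSO libraries, as color, with members in rows by family and libraries in columns. Most hnRNP rows are below 0 in all 3 CX-5461 columns. Most rows of the Sm proteins are below 0 in CX-5461 replicate 1 and are mixed in replicates 2 and 3.

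The SF3 genes and 2 Snrp genes, Snrpa1 and Snrpb2, encode proteins of the U2 snRNP. Of these 10 genes 2 rose, 5 fell and 3 did not pass. Sf3b1 (chr1:54985169-55027481, minus strand), the large subunit that holds the branch point helix and a known target of mutation in uveal melanoma and myelodysplasia, had the largest fall of SF3. It stood at 566, 569 and 571 CPM with DMSO and 445, 428 and 406 CPM with CX-5461. No treated library came near the controls (1.33-fold, log2 −0.42 ± 0.04 SE, edgeR adjusted p = 4.567e-07). It was also the most abundant SF3 gene for its length, at 50 CPM per kb of exon with DMSO.

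Sf3b5, the smallest SF3b subunit, stood at 33.1, 34.9 and 31.9 CPM with DMSO and 34.5, 48.2 and 40.2 CPM with CX-5461. The lowest treated library lay within the range of the controls, although the change passed the test (1.22-fold higher, log2 0.29, edgeR adjusted p = 0.0123). Without replicate 2 of CX-5461 its log2 change was 0.16 and did not pass (edgeR adjusted p = 0.0551), and without replicate 3 of DMSO it did not pass either (0.26, edgeR adjusted p = 0.0583). Sf3a2, a subunit of SF3a, fell from 44.3, 39.3 and 42.6 CPM to 32.1, 35.0 and 37.4 CPM without overlap (1.21-fold, edgeR adjusted p = 0.00279). Sf3a3 rose from 54.3, 54.0 and 56.1 CPM to 58.9, 64.1 and 62.7 CPM (1.13-fold, edgeR adjusted p = 0.00802). Sf3b2 fell 1.12-fold (edgeR adjusted p = 0.00236), and with the span correction it was at −0.07 on the log2 scale and not called. With library totals as the only scaling, neither Sf3b5 nor Sf3a3 was called, and Sf3a3 was not called with the GC correction either.

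The remaining SF3 genes, Sf3a1, Sf3b3 and Sf3b4, did not pass, with intervals of −0.04 to 0.15, −0.11 to 0.07 and −0.11 to 0.12 on the log2 scale. Within SF3b the changes ran from Sf3b1 at −0.42 to Sf3b5 at 0.29, or 0.16 for Sf3b5 without replicate 2 of CX-5461. The log2 ratio of Sf3b3 to Sf3b1 within libraries was −1.20 to −1.16 with DMSO and −0.88 to −0.66 with CX-5461. The small SF3b subunit Sf3b6 is listed under the older symbol 0610009D07Rik and so was outside the symbol rule. It went from 108 ± 6.72 to 80.2 ± 8.40 CPM (SD, n = 3 each), a fall of 1.35-fold (edgeR adjusted p = 3.951e-05).

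Snrpa1 (chr7:66059003-66074587, plus strand) encodes U2 A′, which binds the U2 snRNA together with U2 B″, the product of Snrpb2. Snrpa1 stood at 35.7, 35.5 and 37.3 CPM with DMSO and 17.3, 20.8 and 19.6 CPM with CX-5461. All treated libraries were far below the controls, a fall of 1.89-fold (log2 −0.92 ± 0.08 SE, edgeR adjusted p = 3.058e-08). Its partner Snrpb2 stood at 51.1, 50.4 and 49.1 CPM with DMSO and 41.4, 50.1 and 44.1 CPM with CX-5461. One treated library lay within the range of the controls, and the fall of 1.12-fold was just past the threshold (edgeR adjusted p = 0.0476). With the GC correction the log2 change of Snrpb2 was 0.02, and in 12 of the 18 alternative settings the fall was not called. The log2 ratio of Snrpb2 to Snrpa1 was 0.40 to 0.52 with DMSO and 1.17 to 1.27 with CX-5461.

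None of the 7 Sm ring genes passed edgeR's test, and their median log2 change was −0.04. At an unadjusted p below 0.05 the count was 0 as well, as it was with DESeq2 and limma-voom. With library totals as the only scaling, or without replicate 2 of CX-5461, 2 were called lower. With the GC correction 1 was called lower (Snrpb, log2 −0.157), and without replicate 1 of DMSO 1 was too (Snrpd1, −0.19). With the span correction 1 was called higher (Snrpd3, 0.18). Snrpd1 came closest, at 32.7, 36.8 and 35.5 CPM with DMSO and 30.9, 33.8 and 30.7 CPM with CX-5461 (log2 −0.14, edgeR adjusted p = 0.0798), with groups that overlapped. Snrpb, the most abundant Snrp gene for its length at 111 CPM per kb of exon with DMSO, stood at 215, 214 and 230.0 CPM with DMSO and 201, 221 and 208 CPM with CX-5461. These groups overlapped as well, and the log2 change was −0.06 with an interval of −0.17 to 0.04. Snrpd2, Snrpd3, Snrpe, Snrpf and Snrpg had log2 changes of 0.03, 0.09, −0.04, 0.02 and −0.06, with the widest interval for Snrpg, from −0.32 to 0.19.

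The U1 genes Snrpa and Snrpc did not pass either, with intervals of −0.05 to 0.20 and −0.22 to 0.20. With the span correction Snrpa was called higher (log2 0.156). Snrpa is the U1 relative of Snrpb2, and its log2 ratio to Snrpa1 was 0.59 to 0.79 with DMSO and 1.51 to 1.78 with CX-5461. Sm and U1 genes that did not pass here do not show equal levels. In simulated data with as many genes and libraries the test recovered 36 of 50 genes changed 1.25-fold. That simulation gave all genes the same spread in both groups and changed few genes. Its rate is therefore not the power for these genes.

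What the members share beyond their symbols was compared with their changes as a description only. Their median genomic span was 10.2 kb against 24.2 kb for all tested genes, and their median transcript GC content 45.04% against 49.8%. Across the 49 tested members Spearman's rho between log2 change and span was −0.22, where it was 0.22 across all tested genes with a value. For GC content rho was 0.24 (0.10 across all genes), for mean CPM −0.12 (−0.09) and for the share of 50-base words found in other genes 0. The genes come from the same 6 libraries and are not independent replicates.

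**Figure D5:**
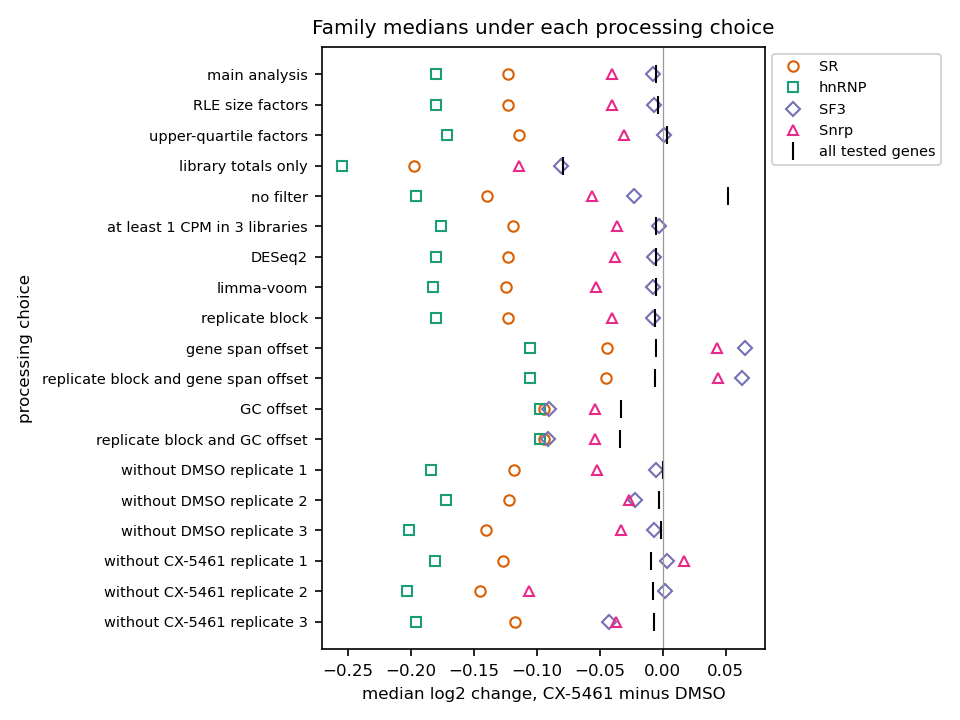
Median log2 change of each family (open markers) and of all tested genes (black ticks) under each processing setting. The hnRNP and SR medians lie below 0 in every setting shown, the SF3 and Snrp medians change sign between settings, and with the GC correction the SR, hnRNP and SF3 medians nearly coincide.

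Other splicing genes, from lists of spliceosome parts and regulators outside the symbol rule, gave the setting for these families. The share called in these lists ran from 45.5% to 76.5%, beside 73.7% of all tested genes (37.2% higher and 36.5% lower). Among 29 other U1, U2, U5 and tri-snRNP genes 5 rose and 13 fell (median log2 change −0.06, or −0.01 with the span and −0.11 with the GC correction). Eftud2, a U5 GTPase, rose 1.50-fold (146 ± 5.46 to 218 ± 9.82 CPM, SD, n = 3 each, edgeR adjusted p = 3.05e-08), and Prpf40b, a U1-associated protein, fell 1.72-fold (112 ± 3.63 to 65.0 ± 2.86 CPM, edgeR adjusted p = 1.88e-09). Of 7 LSm ring genes, which encode relatives of the Sm proteins that bind U6 snRNA or act in mRNA decay, 5 rose and none fell (median 0.44), with 0 lower also at an unadjusted p below 0.05 and by DESeq2 and limma-voom. Without replicate 1 of CX-5461 the counts were 6 higher and 1 lower. Lsm2, present in both LSm rings, rose 1.84-fold, from 14.1 ± 0.876 to 25.9 ± 1.93 CPM (edgeR adjusted p = 1.856e-07).

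Minor spliceosome genes numbered 1 higher and 4 lower of 11 (median −0.09), or 2 and 2 with the span correction (median −0.01), with Snrnp25 up by 0.58 and Scnm1 at −0.67 on the log2 scale. Of 8 genes for 3′ splice site recognition 4 fell and none rose (median −0.16), with 0 higher also at an unadjusted p below 0.05 and by DESeq2 and limma-voom. With the span correction 2 were higher and 4 lower (median −0.07), and without replicate 2 of CX-5461 1 was higher. U2af1, which reads the AG at the intron end, fell 1.49-fold (22.5 ± 1.12 to 15.1 ± 0.288 CPM, edgeR adjusted p = 7.682e-06). Of 23 PRP19 complex and catalytic step genes 3 rose and 12 fell (median −0.15), or 6 and 13 with the span correction, with Ppil1 at 0.52 and Rbm22 at −0.55.

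SR-related proteins and the kinases that phosphorylate SR proteins had 2 members higher and 14 lower of 22. Their share called was 72.7%, beside 73.7% of all tested genes, and their median was −0.25. With the span correction 0 were higher and 14 lower. Tra2b, an SR-like enhancer-binding protein, fell 1.57-fold (75.3 ± 2.53 to 48.0 ± 2.70 CPM, edgeR adjusted p = 5.18e-08). Scaf8, an anti-terminator, rose by 0.20, and it was not called with library totals as the only scaling or with the span or GC corrections.

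Of 34 other splicing regulators 8 rose and 18 fell (76.5% called, beside 73.7% of all tested genes). Their median was −0.16, and with the span correction 4 rose and 19 fell. Celf2, a regulator of muscle and neuronal exons, had the largest rise, from 93.9 ± 0.205 to 359 ± 17.3 CPM (3.83-fold, edgeR adjusted p = 3.638e-14), and with the span correction its log2 change was 0.08 and did not pass. Taf15, an RNA-binding protein, fell 1.84-fold (301 ± 13.2 to 163 ± 4.39 CPM, edgeR adjusted p = 1.438e-10).

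Of 17 genes for snRNP assembly and import 3 rose and 10 fell (76.5% called, beside 73.7% of all tested genes). Their median was −0.18, and with the span correction 5 rose and 8 fell (median −0.09). Gemin2, the partner of Smn1 that holds Sm proteins during ring assembly, fell 2.04-fold (35.4 ± 1.56 to 17.3 ± 1.40 CPM, edgeR adjusted p = 8.275e-09), and Gemin7 rose by 0.52 on the log2 scale. Of 15 nonsense-mediated decay and exon junction genes 2 rose and 8 fell (median −0.14), or 3 and 8 with the span correction, and 1 rose without replicate 1 or 3 of DMSO or replicate 3 of CX-5461. The endonuclease Smg6 rose 2.01-fold, from 25.4 ± 0.937 to 51.0 ± 3.82 CPM, and with the span correction its log2 change was 0.18. The kinase Smg1 fell 1.65-fold, from 221 ± 4.31 to 134 ± 26.9 CPM (edgeR adjusted p = 6.023e-06).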

How the data were processed

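RNA was measured by sequencing in 6 libraries of B16 cells, 3 with DMSO and 3 with CX5461 (1 uM), for 3 days. The authors deposited 1 table of whole-number counts per protein-coding gene, not normalized. Per the submitters' processing notes the genome builds were GRCm38 and mm10. Which aligner and counter were run, with or without strand, and how shared reads were treated is not given in the sources used here. Groups and replicates were taken from titles and treatment labels.

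From the counts, edgeR 4.0.16 (R 4.3.3) gave TMM factors (0.970 to 1.03), a filterByExpr filter with a minimum count of 10, and a two-sided quasi-likelihood F test with treatment as the only term, fitted on 12198 genes. Adjusted p below 0.05 was called, and CPM were scaled to TMM-adjusted totals. The common biological coefficient of variation was 4.86%. Gene positions, exonic lengths, GC content and shared 50-base words came from GENCODE M21 (GRCm38), which matched 21842 of 22740 identifiers and 51 of 51 members. GC content and shared words were taken from the longest transcript of each gene. Promoter windows came from RefSeq (GRCm38) and matched 45 of 51 members. In the table Snu13 and Lsm8 were not found under these names. Ratios within a family were tested with exact permutation.

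On simulated counts of 12198 genes the test recovered 36, 43, 48 and 49 of 50 genes changed 1.25-, 1.5-, 2- and 4-fold, with 8 false calls.

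The members and gene lists were chosen with earlier results of these data known. Values in every library were given for the 3 members with the largest absolute change in each family, the most abundant per exonic length, and, chosen after their values were seen, the others that rose or led the text. Of the other lists, the called genes with the largest rise and fall at 5 CPM or more were named. Alternatives were scaling by RLE, by upper quartile or by library totals, no filter, at least 1 CPM in 3 libraries, DESeq2 1.42.0, limma-voom (limma 3.58.1), the replicate number as a block, offsets for gene span and for GC content (loess span 0.4), and each library left out. The replicate numbers did not pair the samples. The CX-5461 libraries differed more from one another than the DMSO libraries did. Chi-square per degree of freedom between 2 libraries of a group was 5.65 to 9.39 with CX-5461 and 1.57 to 2.54 with DMSO.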

Additional observations from a re-analysis of the deposited data

How the results depend on the processing

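The 18 alternatives kept 16 of the 29 called members at the same call. Those not called in at least 1 were Hnrnpu, Hnrnph1, Hnrnph2, Hnrnpa0, Hnrnpa3, Hnrnpll, Hnrnpr, Hnrnpul1, Srsf5, Sf3b2, Sf3b5, Sf3a3 and Snrpb2. A library left out ended the call of Sf3b5 (DMSO replicate 3 or CX-5461 replicate 2), Hnrnpa0 (replicate 1 of either group), Hnrnpll (DMSO replicate 1 or 2) and Snrpb2 (any but CX-5461 replicate 2). Of the 20 that did not pass, 11 passed in at least 1 alternative with the sign of the main analysis. Srsf1 passed with the opposite sign, as higher, with the GC correction (log2 0.122, edgeR adjusted p = 0.01897). Library totals lowered the median of all genes to −0.08 and its share of higher among all calls from 50.5% to 43.8%, so changes under it are read relative to that shift. The cause of each difference below was not tested. Small counts limit Snrpg most. The CX-5461 libraries differed for Snrpf (12.8, 18.3 and 16.4 CPM) and for Snrpc (16.2, 21.9 and 19.0 CPM). Srsf12 and Snrpn could not be tested.

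Members called higher numbered 3 with library totals and 9 with the span correction, with or without the block. For SR they numbered 2 with the span and the GC corrections, and 1 to 2 with a library left out. For SF3 they numbered 0 with library totals, 1 with the GC correction and 1 to 2 with a library left out. For Snrp they numbered 2 with the span correction. Members called lower numbered 30 with library totals. hnRNP members called lower numbered 9 with the GC correction and with the block and span correction. With the span correction alone those lower were 2 of the A/B and D group, 4 of the H/F group, 2 of the U group and 2 others. In SF3, 2 SF3a genes and 1 SF3b gene were called higher with the span correction. Other counts within 1.5-fold of the main analysis are not listed, so an unlisted setting can still differ from it. Snrp members called lower numbered 4 with library totals, 1 with upper-quartile factors, with 1 CPM in 3 libraries, with DESeq2 and with the span correction, and 1 to 4 with a library left out.

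Family medians (SR, hnRNP, SF3, Snrp) were −0.197, −0.254, −0.081 and −0.114 with library totals, and −0.044, −0.105, 0.065 and 0.043 with the span correction, or −0.045, −0.105, 0.063 and 0.044 with the block added. For the first 3 families they were −0.094, −0.097 and −0.09 with the GC correction, or −0.094, −0.097 and −0.091 with the block added. The SF3 median was 0.001 with upper-quartile factors. With a library left out, the hnRNP median ran from −0.203 to −0.172, the SF3 median from −0.043 to 0.003 and the Snrp median from −0.106 to 0.017.

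Log2 changes of members near 0 changed sign. With the span correction (in parentheses with the block added) Snrpe 0.043 (0.044), Hnrnpab 0.04 (0.039), Srsf1 0.071 (0.071), Srsf2 0.007 (0.007), Snrpc 0.07 (0.07), Snrpb 0.017 (0.018), Srsf6 0.043 (0.042), Hnrnpd 0.084 (0.085), Snrpg 0.019 (0.016) and Sf3b3 0.039 (0.038) did so. With the GC correction (with the block added) Snrpe 0.045 (0.046), Sf3a1 −0.034 (−0.034), Srsf1 0.122 (0.122), Hnrnpm −0.082 (−0.083), Hnrnpll 0.005 (0.006), Snrpb2 0.018 (0.019), Srsf6 0.009 (0.009), Sf3b4 −0.07 (−0.071), Hnrnpd 0.086 (0.087), Snrpd2 −0.059 (−0.06) and Snrpa −0.018 (−0.019) did so. With library totals Snrpf −0.057, Sf3a1 −0.015, Hnrnpm −0.065, Sf3b4 −0.067 and Snrpd2 −0.044 did so. Snrpc was 0.003 with upper-quartile factors, Hnrnpm −0.008 and Sf3b4 −0.01 without a filter, and Snrpf −0.006 with limma-voom. With a library left out, the log2 change ran for Hnrnpab from −0.101 to 0.001, Hnrnpd from −0.071 to 0.037, Hnrnpm from −0.037 to 0.044, Sf3b4 from −0.033 to 0.019, Snrpc from −0.118 to 0.095, Snrpd2 from −0.005 to 0.059, Snrpe from −0.139 to 0.037 and Snrpf from −0.101 to 0.15.

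The replicate number as a block gave 5 members higher and 24 lower, and the correlations of same-numbered deviations were 0.037, 0 and −0.027, so the numbers were not taken as pairs. The block with the span correction gave 9 members higher and 16 lower, with 9 hnRNP members lower.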
